A study of Mus musculus with 19 samples.

Results

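Apoptosis and the p53 response were followed through 9 genes in mouse hippocampus after kainate seizures and after deletion of EZH2 in neurons. They were 2 BH3-only triggers of apoptosis (Bcl2l11, Bbc3), the pore-former Bax, its opponent Bcl2, the death receptor Fas, the caspase Casp8, the transcription factor Trp53, its inhibitor Mdm2 and the cell cycle inhibitor Cdkn1a. The genes were taken by name from the symbols the authors deposited, and all 9 were found among 55416 genes of the read count table. All 9 also passed the filter on low counts, so each was tested among 19234 genes.

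Mitochondrial apoptosis is decided within the BCL-2 family: BH3-only proteins neutralise pro-survival members such as BCL-2 or activate BAX and BAK, which then open the outer mitochondrial membrane and release cytochrome c. Death receptors such as FAS take a separate route, in which ligand binding recruits the adaptor FADD and activates caspase-8. The transcription factor p53 is held low by MDM2 and, when stabilised, raises the genes of p21 (Cdkn1a), PUMA (Bbc3), BAX, FAS and MDM2 itself, and p21 is also induced in reactive and dividing glia by routes that do not need p53.

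RNA came from the hippocampus of C57BL6 mice, and all 4 groups, controls included, carried the Syn1Cre transgene as Syn1Cre(+/-), a recombinase driven by the neuronal Synapsin1 promoter. WT mice were EZH2(+/+) and EZH2nHom mice carried floxed EZH2 alleles, so that the methyltransferase of Polycomb repressive complex PRC2 was to be lost in neurons and kept in glia, vessels and blood cells. Mice received saline, or repeated low doses of kainate, a glutamate receptor agonist, until status epilepticus, a prolonged seizure, and tissue was taken on day 4. Each group held 5 libraries, except for 4 in EZH2nHom after kainate. The labels give neither age nor sex and do not say that each library was a separate animal, so p-values measure the spread between these libraries.

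The start sites of the members are shown first, because 5 of the 9 (Cdkn1a, Mdm2, Bax, Bbc3 and Fas) are known p53 targets. All 9 matched the RefSeq table of promoter windows (GRCm38.p6, 250 bases before to 50 after each start), with 13 windows. The p53 half-site, the 10-base decamer of which p53 response elements hold a pair, was found in the windows of 4 members (Cdkn1a, Mdm2, Bax and Trp53), against 8.36% of all 32851 windows. In the stretches below, taken from before the start and read 5′ to 3′ on the gene's strand, capitals mark the half-site.
Cdkn1a: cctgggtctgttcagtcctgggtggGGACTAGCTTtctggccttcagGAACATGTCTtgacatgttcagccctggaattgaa
Mdm2: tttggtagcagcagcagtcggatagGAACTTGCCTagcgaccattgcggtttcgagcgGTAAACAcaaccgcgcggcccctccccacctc
Bax: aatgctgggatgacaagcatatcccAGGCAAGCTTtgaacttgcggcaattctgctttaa
Trp53: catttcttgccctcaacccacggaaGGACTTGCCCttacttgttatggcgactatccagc
These lie at chr17:29090881-29090962 (plus strand), chr10:117710880-117710969 (minus), chr7:45467065-45467124 (minus) and chr11:69580259-69580318 (plus). The Cdkn1a stretch, before the more upstream of its 2 listed starts, holds 2 half-sites, which begin 73 and 51 bases before the start. The half-site begins 186 bases before the start of Mdm2, 201 before that of Bax and 75 before that of Trp53. In the Mdm2 stretch the second capitalised run is the forkhead motif described next.

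The forkhead motif TGTTTAC, which FOXO factors bind, was in the windows of Bcl2l11, Bbc3 and Mdm2 on either strand (GTAAACA on the other), and in 3.65% of all windows. Fas had neither motif but carried TGANTCA, the core of AP-1 sites, in 7.81% of all windows, and TTCNNNGAA, the core of STAT sites, in 8.3%. Casp8 and Bcl2 held none of the 4 motifs, which says only that these letters are not in these windows. The matches are shown here as part of the description of each gene.
Bcl2l11: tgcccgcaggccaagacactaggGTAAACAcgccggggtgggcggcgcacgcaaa
Bbc3: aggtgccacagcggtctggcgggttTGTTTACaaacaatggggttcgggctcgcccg
Fas: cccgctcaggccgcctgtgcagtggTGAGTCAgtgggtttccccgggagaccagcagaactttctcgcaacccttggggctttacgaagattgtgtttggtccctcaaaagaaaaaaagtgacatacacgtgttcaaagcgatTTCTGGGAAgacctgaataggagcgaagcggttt
They lie at chr2:128125788-128125842, chr7:16310069-16310125 and chr19:34290423-34290599, all on the plus strand. The Fas stretch holds TGANTCA from 211 and TTCNNNGAA from 93 bases before the start. A match is a run of letters and not a bound site, and no binding was measured.

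Total reads per library ran from 24496685 to 43948317. Levels are given as CPM, read counts relative to the library size after TMM scaling. Ezh2 itself lay between 9.61 and 12.9 CPM in the WT saline libraries and between 11.8 and 15.5 CPM in those of EZH2nHom. These reads cover the whole gene in all cells, so they do not check the neuronal deletion. EZH2nHom kainate replicate 2 stood apart from the other 18 libraries on the second principal component (-108.5 against -19.0 to 27.5), and test results that rest on it are given without it as well. The share of reads from small structural RNAs was 0.0295% to 0.0577% in WT saline and 0.0429% to 0.172% in WT kainate libraries. In EZH2nHom it was 0.148% to 0.677% after saline and 0.115% to 0.676% after kainate. The share thus moved with genotype and, in WT, with kainate. Its ranges overlapped between the WT groups and between the genotypes after kainate. The sample code prefixes were never shared between genotypes, so what they stand for and genotype cannot be told apart. Within EZH2nHom no prefix occurred in both saline and kainate libraries, so prefix and kainate cannot be told apart there either.

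Marker genes of several cell types moved with kainate. Summed CPM of 8 microglial markers lay between 374 and 420 after saline and between 685 and 2040 after kainate in WT. The corresponding sums in EZH2nHom lay between 317 and 361 and between 953 and 2010. Markers of dividing cells rose 6 of 6 in each genotype, those of blood leukocytes 4 of 6 in WT and 5 of 6 in EZH2nHom, and those of astrocytes 4 and 5 of 8, among them Gfap, by 3.27 and 3.51 on the log2 scale. Red blood cell markers rose 5 of 5 in WT and 0 of 5 in EZH2nHom, and 3 of 6 oligodendrocyte markers fell in EZH2nHom. Neuronal markers summed to between 6340 and 6880 CPM after saline and between 4330 and 6950 CPM after kainate in WT, with overlap. In EZH2nHom their sums lay between 6540 and 7260 CPM and between 4390 and 5690 CPM, without overlap. Of neuronal markers 1 of 8 fell in WT and 4 of 8 in EZH2nHom, beside 2.57% and 11.8% of all genes. Of hippocampal principal cell markers 3 of 6 fell in each genotype. None of the markers of any list was at 0 throughout. In these bulk samples fewer cells of a type and less RNA per cell cannot be told apart, and the part of cell composition in the results below was not tested.

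After kainate 3 of the 9 genes rose in WT (Casp8, Fas, Bcl2l11) and 5 rose in EZH2nHom (Cdkn1a, Fas, Casp8, Bcl2l11, Bax), and 0 fell in either. Of all genes tested 9.47% rose and 2.57% fell in WT, and 14.3% rose and 11.8% fell in EZH2nHom. The median log2 change over the 9 genes was 0.57 in WT and 0.64 in EZH2nHom, beside -0.02 over all genes in each. Without EZH2nHom kainate replicate 2, whose spread enters the shared error estimate, 5 rose in WT and 6 in EZH2nHom, with Cdkn1a and Trp53 added in WT and Trp53 in EZH2nHom. In a fit to the WT libraries with the replicate number as a block, chosen after seeing the data, 5 rose in WT, again with Cdkn1a and Trp53 added. The kainate contrasts have no library in common, but each shares a group with both genotype contrasts.

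**Figure D1:**
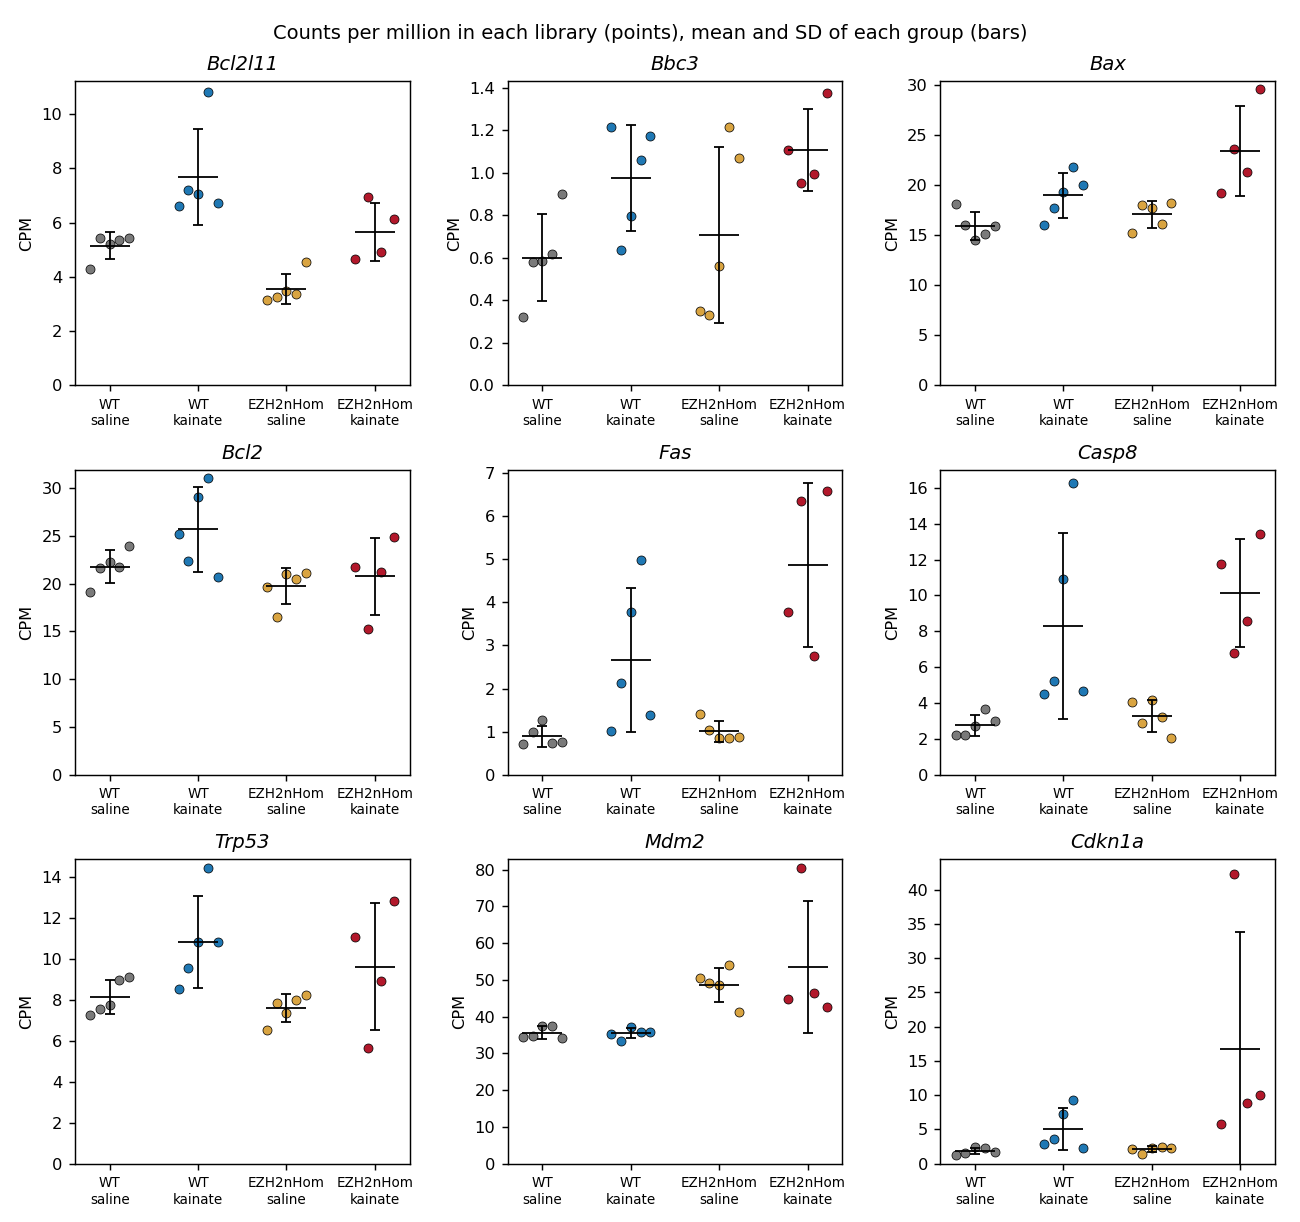
CPM (vertical axes, each from 0) of the 9 genes in each of 19 libraries; points are libraries, horizontal bars group means and whiskers SD. Casp8 was higher in every kainate library than in any saline library of its genotype, Mdm2 was separated by genotype, and 1 EZH2nHom kainate library lay at 42.3 CPM for Cdkn1a, where the lower SD whisker runs past 0.

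Bcl2l11 encodes BIM, a BH3-only protein that binds pro-survival BCL-2 proteins. It measured 4.29, 5.44, 5.23, 5.36 and 5.43 CPM in WT saline replicates 1 to 5 and 6.62, 7.20, 7.04, 10.8 and 6.71 CPM in WT kainate. The EZH2nHom libraries held 3.14, 3.27, 3.47, 3.38 and 4.55 CPM after saline and 4.67, 6.93, 4.92 and 6.12 CPM after kainate. Every kainate library lay above every saline library of its genotype, and WT kainate replicate 4 stood highest. With kainate it rose by a log2 change of 0.57 ± 0.16 (SE; adjusted p = 0.0229) in WT and of 0.67 ± 0.17 (adjusted p = 0.00689) in EZH2nHom. The WT call was lost without WT saline replicate 1 (adjusted p = 0.0653) or WT kainate replicate 4 (adjusted p = 0.0912), and held when any other single library was left out.

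Bbc3 encodes PUMA, the BH3-only protein most closely tied to p53, and was the lowest of the 9, with 8 to 47 reads per library. It measured 0.322, 0.581, 0.585, 0.620 and 0.899 CPM in WT saline and 1.22, 0.637, 0.798, 1.06 and 1.17 CPM in WT kainate. In EZH2nHom the levels were 0.352, 0.331, 0.563, 1.22 and 1.07 CPM after saline and 1.10, 0.954, 0.993 and 1.38 CPM after kainate. The groups overlapped in both genotypes, and EZH2nHom saline spread most, from 3 low to 2 high libraries. The log2 change was 0.70 ± 0.35 (adjusted p = 0.2196) in WT and 0.64 ± 0.36 (adjusted p = 0.197) in EZH2nHom, neither past the threshold, with 95% intervals from -0.02 to 1.42 and from -0.10 to 1.38. Both intervals hold 0 as well as the change of Bcl2l11. In EZH2nHom it passed with the structural RNA share as a covariate (0.88, adjusted p = 0.0386) and with the replicate number as a block in all libraries (0.87, adjusted p = 0.0462), and a block in the EZH2nHom libraries alone gave 1.05 (adjusted p = 0.1403).

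Bax, the pore-former of the mitochondrial route, measured 18.1, 16.0, 14.5, 15.1 and 15.9 CPM in WT saline and 16.0, 17.7, 19.3, 21.8 and 20.02 CPM in WT kainate. EZH2nHom libraries had 15.2, 18.05, 17.7, 16.1 and 18.2 CPM after saline and 19.2, 23.6, 21.3 and 29.6 CPM after kainate. The WT groups overlapped, while all 4 EZH2nHom kainate libraries lay above the 5 saline ones. Bax rose in EZH2nHom by a log2 change of 0.46 ± 0.12 (adjusted p = 0.00721), and the WT value of 0.25 ± 0.11 did not pass (adjusted p = 0.165). The rise in EZH2nHom passed in all 19 fits that left out 1 library each.

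Bcl2, the pro-survival founder of the family, did not pass the test in either genotype. It measured 19.1, 21.7, 22.3, 21.7 and 24.0 CPM in WT saline, and 25.2, 22.3, 29.1, 31.1 and 20.7 CPM in WT kainate. Levels in EZH2nHom were 19.7, 16.5, 21.0, 20.5 and 21.1 CPM after saline and 21.7, 15.2, 21.3 and 24.9 CPM after kainate. All 4 groups overlapped, and the lowest value was that of EZH2nHom kainate replicate 2. Its log2 change was 0.24 ± 0.13 (adjusted p = 0.259) in WT and 0.07 ± 0.13 (adjusted p = 0.729) in EZH2nHom.

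The balance of Bax to Bcl2 is often read as a measure of how primed a tissue is for apoptosis, and was taken per kilobase of exon in each library. The log2 ratio was 2.46, 2.10, 1.91, 2.02 and 1.94 in WT saline and 1.88, 2.20, 1.95, 2.02 and 2.49 in WT kainate, so the WT groups covered the same range. In EZH2nHom it was 2.17, 2.67, 2.30, 2.19 and 2.33 after saline and 2.36, 3.17, 2.54 and 2.79 after kainate. The mean was 2.09 ± 0.22 (SD) after saline and 2.11 ± 0.25 after kainate in WT, and 2.33 ± 0.20 and 2.72 ± 0.35 in EZH2nHom. The kainate and saline ranges of EZH2nHom overlapped, and the highest ratio, in EZH2nHom kainate replicate 2, went with the lowest Bcl2. The ratio is a description with no test.

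**Figure D2:**
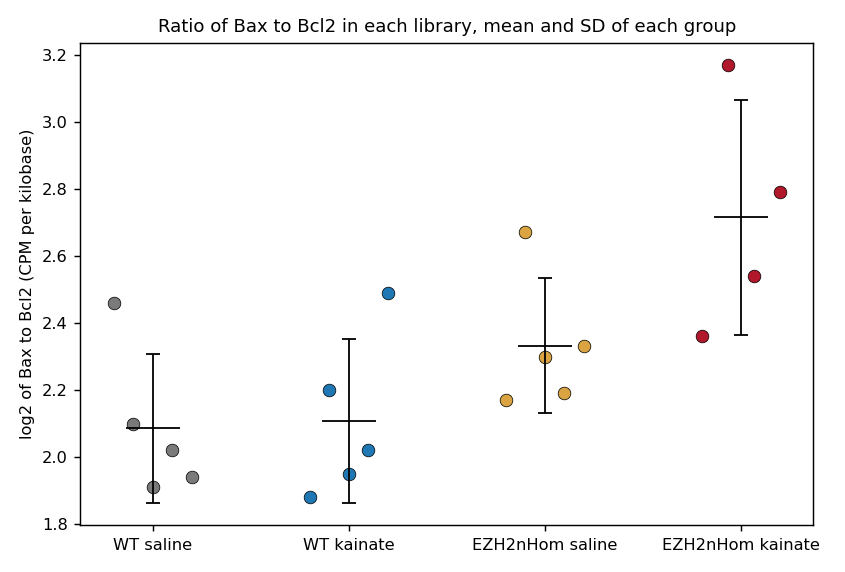
Log2 ratio of Bax to Bcl2, each as CPM per kilobase of exon (vertical axis), in each library; points are libraries, horizontal bars group means and whiskers SD. The WT groups share a range around a mean near 2.1, and EZH2nHom kainate holds the highest value, 3.17; the axis does not start at 0.

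Fas, the death receptor, and Casp8, the caspase it recruits, rose together in both genotypes. Fas measured 0.709, 0.979, 1.27, 0.727 and 0.761 CPM in WT saline and 1.02, 2.13, 3.77, 4.98 and 1.38 CPM in WT kainate. For EZH2nHom the values were 1.41, 1.03, 0.859, 0.852 and 0.862 CPM after saline and 3.77, 6.35, 2.75 and 6.59 CPM after kainate. The EZH2nHom groups were apart, while in WT kainate replicate 1 lay within the saline range. The log2 change of Fas was 1.57 ± 0.38 (2.97-fold, adjusted p = 0.00915) in WT and 2.27 ± 0.39 (4.82-fold, adjusted p = 0.0003066) in EZH2nHom.

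Casp8 measured 2.22, 2.23, 2.72, 3.64 and 2.97 CPM in WT saline and 4.48, 5.20, 10.9, 16.3 and 4.69 CPM in WT kainate. The EZH2nHom values were 4.06, 2.90, 4.18, 3.19 and 2.05 CPM after saline and 11.8, 6.79, 8.59 and 13.4 CPM after kainate. No kainate library overlapped a saline library of its genotype. Casp8 rose by a log2 change of 1.58 ± 0.33 in WT (2.998-fold, adjusted p = 0.00338) and 1.63 ± 0.34 in EZH2nHom (3.09-fold, adjusted p = 0.00167). The calls of both Fas and Casp8 held in all 19 fits that left out 1 library each, in both genotypes.

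Within WT kainate the libraries highest in Fas, Casp8 and Cdkn1a were replicates 3 and 4. The same libraries had the highest summed microglial markers, 1440 and 2040 CPM against 685 to 874 CPM in the other three, and the lowest summed neuronal markers, 5160 and 4330 CPM against 6110 to 6950 CPM. Summed markers of dividing cells were 200 and 285 CPM there, against 59.7 to 89.4 CPM. The part of these cell types in the rise of Fas and Casp8 was not tested.

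Trp53 encodes p53, whose activity is set mainly at the level of the protein. It measured 7.28, 7.58, 7.74, 8.97 and 9.13 CPM in WT saline and 8.54, 9.55, 10.8, 14.4 and 10.8 CPM in WT kainate. The EZH2nHom libraries held 6.53, 7.86, 7.38, 8.0004 and 8.23 CPM after saline and 11.1, 5.65, 8.94 and 12.9 CPM after kainate. Replicate 2 was the lowest of all 19 libraries, and the other 3 EZH2nHom kainate libraries lay above all 5 saline libraries. The log2 change of Trp53 was 0.41 ± 0.18 (adjusted p = 0.146) in WT and 0.34 ± 0.18 (adjusted p = 0.1802) in EZH2nHom, neither past the threshold. Without EZH2nHom kainate replicate 2 both passed, WT at 0.41 (adjusted p = 0.0375) and EZH2nHom at 0.53 (adjusted p = 0.0124). With the replicate number as a block in a fit to the WT libraries, chosen after seeing the data, the WT value was 0.40 (adjusted p = 0.0343). The WT value passed in 1 of 19 fits that left out 1 library each and in 1 of 12 other alternatives. For EZH2nHom these counts were 1 of 19 and 0 of 11.

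Mdm2, the ubiquitin ligase that degrades p53 and is itself a p53 target, did not pass the test with kainate. It measured 34.4, 34.9, 37.5, 37.5 and 34.1 CPM in WT saline and 35.4, 33.4, 37.1, 35.9 and 35.9 CPM in WT kainate. In EZH2nHom the levels were 50.5, 49.1, 48.6, 54.0 and 41.2 CPM after saline and 44.8, 80.5, 46.4 and 42.5 CPM after kainate. The WT libraries spanned a narrow band, and replicate 2 of EZH2nHom kainate stood far above the rest. The kainate log2 change of Mdm2 was -0.01 ± 0.13 (adjusted p = 0.987) in WT and 0.14 ± 0.14 (adjusted p = 0.504) in EZH2nHom. The 95% interval in WT, from -0.28 to 0.27, leaves out a rise of the size of Fas or Casp8. Without replicate 2 the EZH2nHom value was -0.13 (adjusted p = 0.194).

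Cdkn1a encodes p21, which arrests the cell cycle and is the most widely used p53 target. It measured 1.29, 1.56, 2.37, 2.24 and 1.76 CPM in WT saline and 2.91, 3.63, 7.22, 9.34 and 2.34 CPM in WT kainate. EZH2nHom libraries had 2.11, 1.37, 2.34, 2.40 and 2.35 CPM after saline and 5.75, 42.3, 8.82 and 9.99 CPM after kainate. All 4 EZH2nHom kainate libraries lay above the saline range, and replicate 2 was more than 4 times the next highest. In WT 4 of 5 kainate libraries lay above all saline libraries, and the fifth fell just below the highest of these.

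Cdkn1a rose in EZH2nHom by a log2 change of 2.97 ± 0.50 (7.84-fold, adjusted p = 0.0003023), the highest estimate among the 9 genes with all libraries. The WT value, 1.45 ± 0.48 (2.74-fold), just missed the threshold (adjusted p = 0.0540). Without EZH2nHom kainate replicate 2 the EZH2nHom value was 1.94 ± 0.36 (adjusted p = 0.0006495), below that of Fas at 2.11, and the WT value passed at 1.45 (adjusted p = 0.00527). The WT value also passed with the replicate number as a block in a fit to the WT libraries, at 1.32 (adjusted p = 0.0123). That fit was chosen after seeing the data. The WT value passed in 4 of 19 fits that left out 1 library each and in 4 of 12 other alternatives. In EZH2nHom kainate replicate 2 the summed markers were lower than in the other 3 of its group for hippocampal principal cells (474 against 591 to 1040 CPM), microglia (953 against 1120 to 2010 CPM), astrocytes (5780 against 8250 to 10100 CPM), dividing cells (87.3 against 128 to 279 CPM), oligodendrocytes (3420 against 4000 to 5820 CPM) and red blood cells (103 against 158 to 434 CPM). They were higher for neurons (5690 against 4390 to 5600 CPM) and endothelium (88.2 against 52.6 to 61.3 CPM). Their part in its Cdkn1a level was not tested.

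**Figure D3:**
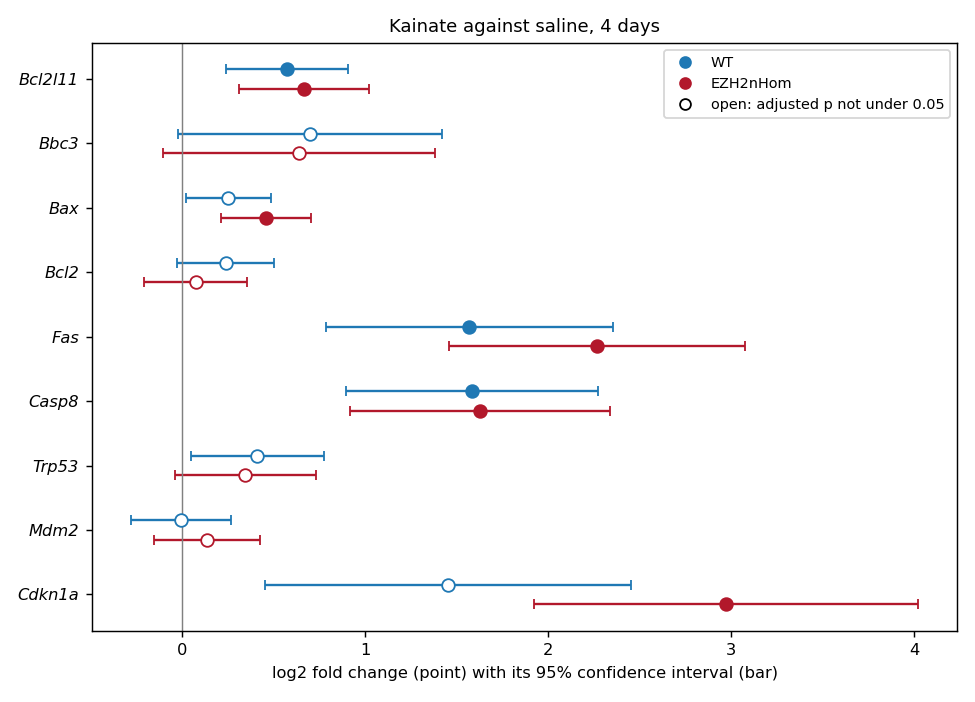
Log2 fold change after kainate against saline (horizontal axis) of the 9 genes in WT and EZH2nHom; points are estimates and bars 95% confidence intervals, with filled points where the adjusted p was under 0.05. Fas, Casp8 and Cdkn1a have the highest estimates in both genotypes and the 2 Mdm2 intervals include 0.

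Relative to length the members fell into a clear order of level. In WT saline Bax had 10.1 ± 0.87 CPM per kilobase of exon (SD, n = 5) and Mdm2 7.02 ± 0.33. Bcl2 followed at 2.38 ± 0.19 and Trp53 at 2.01 ± 0.21, with overlapping ranges. Casp8 stood at 0.953 ± 0.20 and did not overlap Bcl2l11 below it, at 0.641 ± 0.061. Bcl2l11, Cdkn1a at 0.519 ± 0.13, Fas at 0.432 ± 0.12 and Bbc3 at 0.283 ± 0.096 formed a low group in which each overlapped its neighbour in the order. In EZH2nHom kainate Cdkn1a ran from 1.62 to 11.9, Casp8 from 2.35 to 4.64 and Fas from 1.33 to 3.20 CPM per kilobase, all 3 overlapping the 1.66 to 2.72 of Bcl2. The highest Cdkn1a value was that of replicate 2. Exon lengths came from GENCODE M21 (GRCm38), while the reads were assigned on mm39.

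Counting could blur some of these genes, since no strand setting is given in the sources used here. Exons of Bax share 12.2% of their bases with the overlapping gene Gm45808 on the same strand. Cdkn1a shares 7.68% with AC167363.2 and Bcl2 6.09% with D630008O14Rik, both on the opposite strand. Of the 32-base words of Trp53 transcripts 9.74% also occur elsewhere, mostly in the pseudogene Trp53-ps, and of those of Casp8 8.29%, mostly in Gm20257.

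The 9 genes sit in 10 lists of 94 genes of the same pathways, of which 91 were tested. Of these, 25 rose and 2 fell in WT after kainate, and 34 rose and 5 fell in EZH2nHom. Leaving out the 9 members, 22 of 82 rose and 2 fell in WT, with a median log2 change of 0.15, and 29 rose and 5 fell in EZH2nHom, with a median of 0.25. These shares stand beside the 9.47% and 14.3% of all genes that rose.

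Among BH3-only genes 3 of 7 rose and 1 fell in each genotype. Pmaip1, which encodes the p53-inducible NOXA, rose by 1.79 ± 0.47 in WT and 2.89 ± 0.47 in EZH2nHom, and Bmf by 0.84 ± 0.19 and 1.06 ± 0.20. Hrk, a BH3-only gene expressed in neurons, fell by 0.65 ± 0.17 and 0.68 ± 0.18 on the log2 scale. In WT the call of Pmaip1 was lost without WT kainate replicate 4 (1.33, adjusted p = 0.0714) and that of Hrk without WT kainate replicate 3 (adjusted p = 0.0589). Bak1, the second pore-former of mitochondria, rose by 0.64 ± 0.15 in WT and 0.61 ± 0.15 in EZH2nHom. Of its 32-base words 20.3% also occur in other genes, most often in Ggnbp1.

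Of 7 pro-survival genes 3 rose and 1 fell in WT, and 4 rose and 1 fell in EZH2nHom. The 3 that rose in WT were the A1 genes Bcl2a1a, Bcl2a1b and Bcl2a1d, which are expressed in leukocytes and microglia and whose log2 changes were 2.76, 3.03 and 4.28 in WT and 3.88, 3.42 and 4.10 in EZH2nHom. These genes are near-identical, with 78.9%, 88.2% and 88.6% of their 32-base words found in other genes, so reads could be split among them and the separate values are uncertain. Mcl1 rose in EZH2nHom by 0.80 ± 0.21 (adjusted p = 0.00723), and by 0.38 ± 0.12 without EZH2nHom kainate replicate 2 (adjusted p = 0.0211). Bcl2l2, which encodes BCL-W, was the 1 that fell, by 0.37 in WT and 0.35 in EZH2nHom. The WT call was lost without any single WT saline library or WT kainate replicate 2, 3 or 4, with adjusted p up to 0.1367.

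Along the death receptor route 4 of 9 genes rose in WT and 5 in EZH2nHom. Fadd, the adaptor, passed in neither (0.56 ± 0.25 in WT and 0.19 ± 0.27 in EZH2nHom), and nor did Tradd, Tnfsf10 or Tnfrsf21. Fasl, the ligand gene, did not pass the filter on low counts and was not tested. Tnfrsf1a, the TNF receptor, rose by 1.77 ± 0.32 in WT and 2.41 ± 0.34 in EZH2nHom, and Ripk1, the kinase below it, by 0.70 ± 0.19 and 1.03 ± 0.20. Cflar, which encodes FLIP and restrains caspase-8, rose by 0.50 ± 0.14 and 0.62 ± 0.15. Tnfrsf10b, the TRAIL receptor, rose in EZH2nHom by 1.86 ± 0.56, a call lost without EZH2nHom kainate replicate 4 (adjusted p = 0.0678). In WT the call of Ripk1 was lost without WT saline replicate 1 or 2 or WT kainate replicate 3 or 4 (adjusted p up to 0.0748), and that of Cflar without WT saline replicate 2 or 5 or WT kainate replicate 3 or 4 (adjusted p up to 0.0858).

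Of 12 caspase and apoptosome genes 3 rose in each genotype, Casp8 among them. Cycs, which encodes cytochrome c, fell in EZH2nHom by 0.21 ± 0.07 (adjusted p = 0.0332). That call passed in 7 of 19 fits that left out 1 library each, where the adjusted p reached 0.1301, and in 5 of 11 other alternatives. Of the 32-base words of Cycs 29.2% also occur in other genes, most often in Gm10053. Among 4 inhibitors of apoptosis, Birc3 rose by 1.15 ± 0.26 in WT and 2.16 ± 0.27 in EZH2nHom and the other 3 did not pass.

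The necroptosis and pyroptosis genes, which drive lytic death and inflammasome signalling, rose 5 of 8 in WT and 8 of 8 in EZH2nHom. Their median log2 change was 1.68 in WT and 2.39 in EZH2nHom, the highest of the 10 lists in each. Zbp1, a nucleic acid sensor, rose by 4.77 ± 0.74 and 6.21 ± 0.78 from levels under 0.2 CPM in every saline library. Casp4 rose by 2.60 ± 0.46 and 3.41 ± 0.46, Gsdmd, which encodes the pyroptotic pore, by 1.77 ± 0.32 and 2.41 ± 0.33, and the inflammasome adaptor Pycard by 2.20 in WT and 2.36 in EZH2nHom. Nlrp3, the inflammasome sensor, rose by 1.60 and 2.02.

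Of 12 genes of p53 and its regulators 1 rose in each genotype, beside 9.47% and 14.3% of all genes. It was Chek1, a checkpoint kinase of dividing cells, at 0.90 ± 0.28 in both. Its call was lost in WT without WT saline replicate 1, 2, 3 or 5 or WT kainate replicate 3 or 4 (adjusted p up to 0.1598), and in EZH2nHom without EZH2nHom saline replicate 2, 4 or 5 or EZH2nHom kainate replicate 1 or 4 (adjusted p up to 0.0745). With the replicate number as a block in all libraries it was lost in both. Of 30 p53 target genes 5 rose in WT, with a list median of 0.18, and 10 rose and 2 fell in EZH2nHom, with a median of 0.25. Eda2r, a TNF receptor family member, rose by 1.503 ± 0.31 in WT and 1.91 ± 0.32 in EZH2nHom, and Gadd45a, a stress and DNA damage gene, by 1.18 ± 0.30 and 1.75 ± 0.31. Trp53inp1 rose in EZH2nHom by 0.87 ± 0.22, and by 0.37 ± 0.11 without EZH2nHom kainate replicate 2 (adjusted p = 0.0130). The noncoding Trp53cor1, next to Cdkn1a, rose in WT by 1.49 ± 0.38, though 40.9% of its 32-base words occur in other genes. The 2 targets that fell in EZH2nHom, named after their values were seen, were Rrm2b, by 0.50, and Tigar, by 0.28. Tigar was at -0.18 without EZH2nHom kainate replicate 2 and did not pass (adjusted p = 0.0701).

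Among 6 CDK inhibitors Cdkn2c, which encodes p18, rose by 1.63 ± 0.26 in WT and 1.78 ± 0.27 in EZH2nHom. Cdkn1a was the other one to rise in EZH2nHom.

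**Figure D4:**
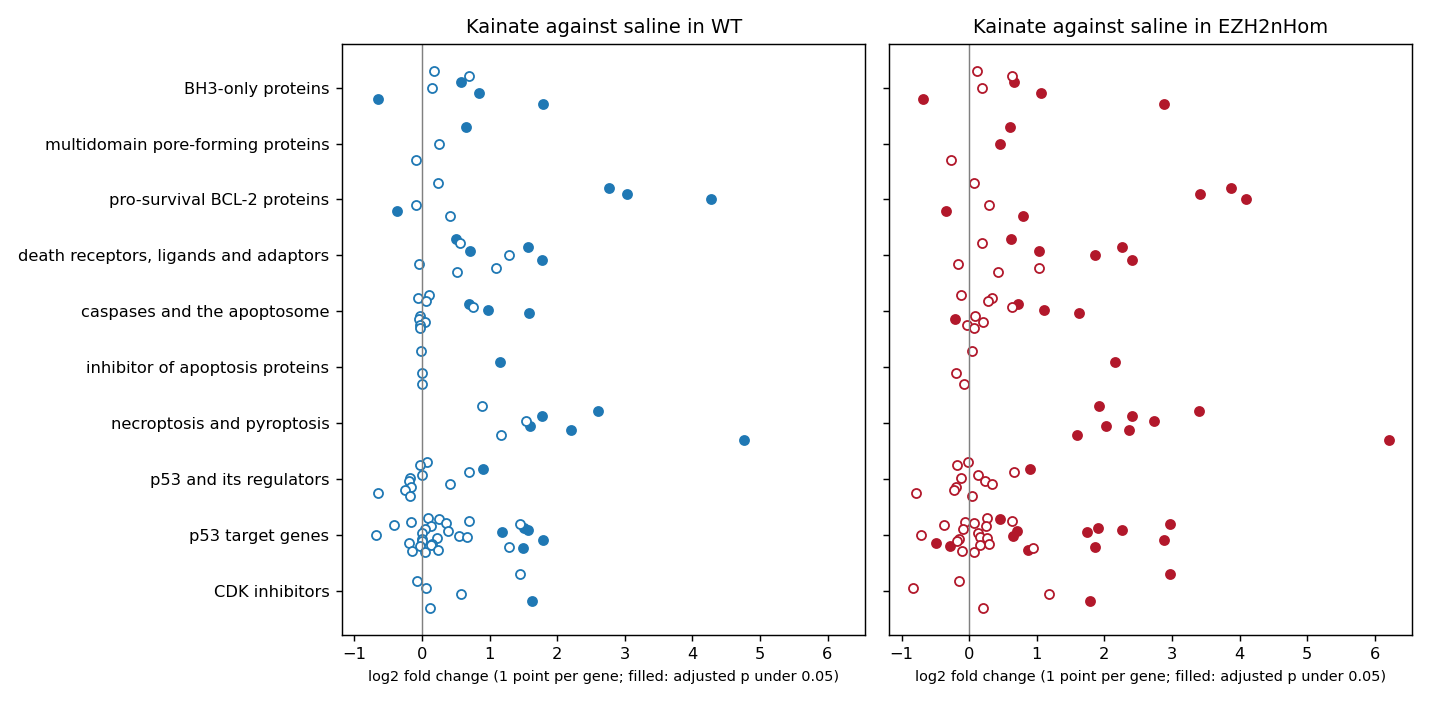
Log2 fold change after kainate against saline (horizontal axes) of the tested genes of 10 lists (rows) in WT (left) and EZH2nHom (right); each point is a gene, filled where its adjusted p was under 0.05. Necroptosis and pyroptosis genes lie furthest to the right, and most p53 regulators lie near 0.

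Between genotypes 2 of the 9 genes differed after saline, Mdm2 higher and Bcl2l11 lower in EZH2nHom, and 2 differed after kainate, Mdm2 and Cdkn1a, both higher. Of all genes 8.33% were higher and 5.16% lower after saline, and 4.56% were higher and 3.04% lower after kainate. A single call among 9 genes is close to these shares, so the count after saline is not a result about the set. The median log2 difference over the 9 genes was 0.18 after saline and 0.29 after kainate, beside 0.02 and 0.00 over all genes.

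Mdm2 was the member that differed between genotypes after both treatments. After saline its 5 EZH2nHom libraries ran from 41.2 to 54.0 CPM against 34.1 to 37.5 CPM in WT, and after kainate its 4 EZH2nHom libraries ran from 42.5 to 80.5 CPM against 33.4 to 37.1 CPM, with no overlap at either. The log2 difference was 0.45 ± 0.13 after saline (1.36-fold, adjusted p = 0.0277) and 0.59 ± 0.14 after kainate (1.5-fold, adjusted p = 0.0157). Without EZH2nHom kainate replicate 2 it was 0.45 ± 0.06 after saline (adjusted p = 6.2e-05) and 0.33 ± 0.07 after kainate (adjusted p = 0.0121). With the structural RNA share as a covariate it was 0.57 (adjusted p = 0.0192) and 0.64 (adjusted p = 0.00987). With the 19 libraries in the fit the saline call was close to the threshold, and it was lost in 12 of the 19 fits that left out 1 library each, where the value ran from 0.38 to 0.45 and the adjusted p from 0.0519 to 0.0967. It was also lost with Y-linked reads as a covariate (0.38, adjusted p = 0.0882) and with the WT replicate numbers as a block (0.45, adjusted p = 0.0598). Y-linked reads were under 1 CPM in 2 WT saline libraries and in 0 EZH2nHom saline libraries. After kainate they were under 1 CPM in 2 WT libraries and in 1 EZH2nHom library, replicate 1.

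Bcl2l11 was lower in EZH2nHom after saline by a log2 difference of -0.53 ± 0.16 (adjusted p = 0.0336). The ranges, 3.14 to 4.55 CPM against 4.29 to 5.44 CPM in WT, met at 1 library of each. After kainate the difference was -0.44 ± 0.17 and did not pass (adjusted p = 0.115). The saline call was lost without EZH2nHom saline replicate 1, 2, 3 or 4, with adjusted p from 0.0657 to 0.0867, and held with the structural RNA covariate (-0.64, adjusted p = 0.0358).

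Cdkn1a was higher in EZH2nHom after kainate by a log2 difference of 1.72 ± 0.48 (3.29-fold, adjusted p = 0.0352), and this rested on 1 library. Without EZH2nHom kainate replicate 2 the difference was 0.69 ± 0.35 (adjusted p = 0.263), and the remaining 5.75 to 9.99 CPM lay largely within the WT kainate range of 2.34 to 9.34 CPM. The call was also lost without WT kainate replicate 1, 2 or 5 (adjusted p = 0.0837, 0.0832 and 0.0785). After saline the difference was 0.20 ± 0.48 (adjusted p = 0.843). A fit to only the 2 kainate groups, which does not share the error of the saline groups, called neither Cdkn1a (adjusted p = 0.259) nor Mdm2 (adjusted p = 0.216). All 5 red blood cell markers were lower in EZH2nHom after kainate, with a median log2 difference of -2.02, and their part in these results was not tested.

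**Figure D5:**
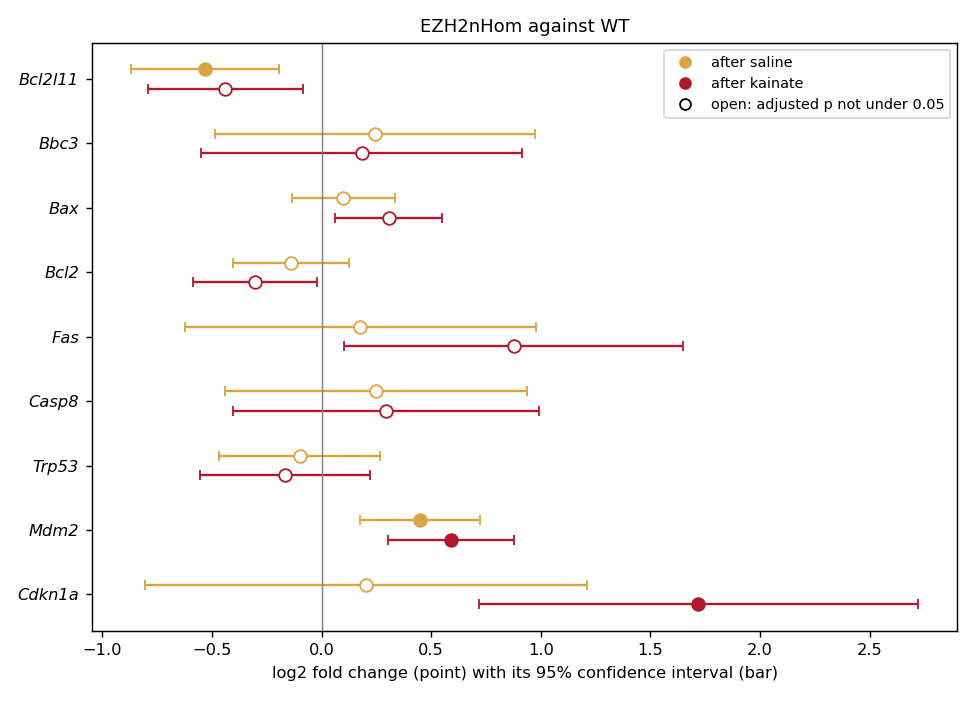
Log2 difference between EZH2nHom and WT (horizontal axis) of the 9 genes after saline and after kainate; points are estimates and bars 95% confidence intervals, with filled points where the adjusted p was under 0.05. Mdm2 lies to the right of 0 after both treatments, at 0.45 and 0.59, and Bcl2l11 to the left.

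The other members did not pass between genotypes. Fas was 0.18 ± 0.38 after saline (adjusted p = 0.823) and 0.88 ± 0.37 after kainate (adjusted p = 0.152), where WT kainate ran from 1.02 to 4.98 CPM and EZH2nHom kainate from 2.75 to 6.59 CPM. Bax was 0.10 ± 0.11 and 0.31 ± 0.12 (adjusted p = 0.114 after kainate) and Bcl2 -0.14 ± 0.13 and -0.30 ± 0.13 (adjusted p = 0.175 after kainate). Casp8 was 0.25 ± 0.33 and 0.29 ± 0.33, Trp53 -0.10 ± 0.18 and -0.17 ± 0.18, and Bbc3 0.24 ± 0.35 and 0.18 ± 0.35. The 95% intervals of Casp8 reached 0.94 after saline and 0.99 after kainate, so a difference of that size lies within the error of these libraries.

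Of the 91 tested pathway genes 7 were higher and 4 lower in EZH2nHom after saline, and 8 were higher and 4 lower after kainate. These counts stand beside 8.33% higher and 5.16% lower of all genes after saline and 4.56% and 3.04% after kainate. They were 17 and 7 after saline and 8 and 3 after kainate without EZH2nHom kainate replicate 2. Bak1 was higher by 0.65 ± 0.15 after saline (adjusted p = 0.00573) and by 0.62 ± 0.15 after kainate (adjusted p = 0.0207). The 32-base words that Bak1 (20.3%) and Cycs (29.2%) share with other genes limit their values here as well. The kainate call of Bak1 was lost without WT kainate replicate 1, 2 or 5 or EZH2nHom kainate replicate 4 (adjusted p up to 0.0543). Cycs was higher after saline by 0.33 ± 0.07, and Mcl1 was higher after kainate by 0.77 ± 0.21 (adjusted p = 0.0292), which fell to 0.35 ± 0.12 without EZH2nHom kainate replicate 2 (adjusted p = 0.0846). The Mcl1 call was also lost without WT kainate replicate 1, 2 or 5, and in a fit to only the groups compared neither Bak1 (adjusted p = 0.2306) nor Mcl1 (adjusted p = 0.2684) passed. With the structural RNA covariate, 4 were higher and 4 lower after saline and 10 higher and 3 lower after kainate.

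The regulators of p53 included members of both directions, and those named here were singled out after their values were seen. Mdm4, the partner of Mdm2 that also restrains p53, was lower in EZH2nHom by -0.34 ± 0.08 after saline (adjusted p = 0.00509) and -0.28 ± 0.08 after kainate (adjusted p = 0.0395), the latter lost without replicate 2 (-0.21, adjusted p = 0.0787). Ppm1d, which encodes the phosphatase WIP1 that switches off p53 signalling, ran from 19.2 to 22.9 CPM in EZH2nHom saline against 15.9 to 16.4 CPM in WT saline. The saline difference of Ppm1d was 0.34 ± 0.17 and did not pass (adjusted p = 0.204). Its difference was 0.76 ± 0.18 after kainate (adjusted p = 0.0161), and 0.37 ± 0.07 without replicate 2, where it also passed (adjusted p = 0.00512). Usp7, a deubiquitinase of MDM2 and p53, was higher after kainate by 0.58 ± 0.15 (adjusted p = 0.0236), and by 0.28 ± 0.07 without replicate 2 (adjusted p = 0.0243). After saline Usp7 did not pass (0.36 ± 0.14, adjusted p = 0.0936). Of 30 p53 target genes 3 were higher and 1 lower in EZH2nHom after saline, and likewise after kainate. Of all genes 8.33% were higher and 5.16% lower after saline, and 4.56% higher and 3.04% lower after kainate. The saline count is near these shares and is not a result about the list. Plk3, by 0.46 ± 0.14 (adjusted p = 0.0311), and Xpc, by 0.25 ± 0.08 (adjusted p = 0.0383), were among the targets higher after saline. Zmat3, a p53 target, was lower by -0.68 ± 0.12 after saline and -0.64 ± 0.13 after kainate. Of 12 caspase and apoptosome genes 2 were higher and 1 lower after saline, and 1 higher and 1 lower after kainate. These small counts stand beside the same shares of all genes and are not a result about the list. Casp9, the initiator caspase of the apoptosome, was lower by -0.59 ± 0.08 and -0.47 ± 0.08.

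The kainate response did not differ between the genotypes past the threshold for any of the 9 genes. With edgeR 0% of all genes were higher and 0% lower in this comparison at an adjusted p under 0.05, 1685 genes had an unadjusted p under 0.05, and DESeq2 called 12. Cdkn1a had the largest difference among the members, 1.52 ± 0.68 (unadjusted p = 0.0375, adjusted p = 0.561), and fell to 0.49 without EZH2nHom kainate replicate 2. Fas followed at 0.70 ± 0.53 (adjusted p = 0.714), and the values of the other 7 ran from -0.16 to 0.21. Fas and Casp8 therefore rose in each genotype without a tested difference in the size of the rise, and the interval of that difference for Casp8 ran from -0.94 to 1.03.

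The genes whose log2 CPM followed each member most closely across the 19 libraries were ranked by Pearson correlation among 15249 genes. The libraries of a group share treatment and genotype, so the coefficients are descriptions of the shared pattern. They include EZH2nHom kainate replicate 2, far from its group in Cdkn1a and Mdm2, and are not given without it. Cdkn1a was followed most closely by Socs3 (0.974), Il13ra1 (0.967) and Mvp (0.966), Casp8 by Anxa4 (0.975), Ddx58 (0.975) and Stat6 (0.974), and Fas by Mcm4 (0.970), Elf1 (0.967) and Cd109 (0.966). Mdm2 was closest to Topors (0.964), Dnttip2 (0.964) and Chd1 (0.962), and Trp53 to Castor1 (0.934), Sall1 (0.933) and Cyb561a3 (0.930). For Bcl2l11 they included Rpl41 (0.931) and Fbxw8 (0.926), for Bax they were Tubb2b (0.898), Irf1 (0.896) and Rnf114 (0.891), and for Bcl2 Rhoq (0.898), Lasp1 (0.871) and Nod1 (0.863). Bbc3, the lowest in reads, had the lowest coefficients, with Rilpl2 (0.832), Pkig (0.808) and Nckap5l (0.807).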

How the data were processed

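For the 19 libraries, hippocampal total RNA had its cytoplasmic and mitochondrial ribosomal RNA removed before sequencing (extract protocol of the labels). The authors deposited whole-number read counts per gene, and the submitters' processing notes name mm39, DESeq2 and DESeq. Aligner, counting program and strand setting are not given in the sources used here. A second deposited table, used only for gene symbols, holds normalised signal (counts divided by a size factor by the authors) and, per the file headers, log2 fold changes, a test score and p-values. A filtered subset, deposited as a separate table, was not used.

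R 4.3.3 was used for the counts of 55416 genes, with edgeR 4.0.16 (filterByExpr, TMM, robust quasi-likelihood fit to all 19 libraries with a mean per group), limma 3.58.1 and DESeq2 1.42.0, and with Python 3.11.15. Tests were two-sided, adjusted over 19234 genes by the Benjamini-Hochberg method, with a threshold of 0.05, and were tested on simulated counts first. The members and gene lists were chosen with earlier results of these data known. Named were all members, up to 4 other genes per list and contrast with the smallest p among those passing for kainate, and the 3 genes most correlated with each member; a few genes that this rule names are not reported here. Depth was 24496685 to 43948317 reads per library. The titles number the EZH2nHom kainate libraries 1 to 4 and the table columns 2 to 5. Title numbers were used, so EZH2nHom values with the replicate block depend on that choice.

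In WT, saline and kainate libraries with the same number deviated from their groups in the same sense (r from 0.125 to 0.447 for the 5 pairs, over 15268 genes). No label states such a pairing. The same-numbered kainate library was the best match for WT saline replicates 2, 3 and 5, but not for 1 and 4. Among same-numbered WT libraries only those of replicate 2 shared a code prefix. Y-linked reads were under 1 CPM in replicates 1 and 2 of both WT arms and 155.7 to 185.2 CPM in replicates 3 to 5. Their part in these r values was not tested, so the values do not establish a pairing. The fits with the replicate number as a block, a fit to only the groups compared, other scalings, filters, tests and covariates, and leaving out each library were tried as alternatives. The fits with the block in 1 genotype were chosen after seeing the data. No 2 libraries were identical.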

Additional observations from a re-analysis of the deposited data

Results flagged for a closer look

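In 40 sets of values (the CPM of 9 genes and the ratio of Bax to Bcl2, in 4 groups), 7 held a library far from the others of its group by Dixon's test, where chance gives about 1 in 20. For Bcl2l11 these were WT saline replicate 1, at 4.29 CPM against 5.23 to 5.44 in the others, WT kainate replicate 4, at 10.8 against 6.62 to 7.20, and EZH2nHom saline replicate 5, at 4.55 against 3.14 to 3.47. For Cdkn1a they were EZH2nHom saline replicate 2, at 1.37 CPM against 2.11 to 2.40, and EZH2nHom kainate replicate 2, at 42.3 against 5.75 to 9.99. EZH2nHom kainate replicate 2 was also far from the others for Mdm2, at 80.5 CPM against 42.5 to 46.4. The ratio of Bax to Bcl2 was 6.37 in EZH2nHom saline replicate 2 against 4.51 to 5.02 in the other libraries of that group.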

How the results depend on the processing

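Of the 9 genes 3, 5, 2, 2 and 0 passed in the WT response, the EZH2nHom response, the genotype comparisons after saline and after kainate, and the difference of the responses, as did 27, 39, 11, 12 and 0 of the 91 pathway genes and 2316, 5012, 2596, 1463 and 0 of all genes. DESeq2 called 12 genes in the difference. With no filter, 1 member and 6 pathway genes passed between genotypes after saline, and 1, 7 and 959 (all genes) after kainate. With only the groups compared in the fit, 3066 genes passed in the EZH2nHom response, 28 pathway genes and 5604 genes after saline, and 0 members, 0 pathway genes and 4 genes after kainate. At an adjusted p under 0.01, 1083 and 2815 genes passed in the responses, 0, 5 and 1212 after saline and 0, 3 and 284 after kainate. With Y-linked reads as a covariate 1 member passed after saline, and the saline differences of Cdkn1a and Fas became -0.24 and -0.093. With the structural RNA covariate the WT change of Mdm2 became 0.028, the saline difference of Bax -0.026, those of Bbc3 -0.48 after saline and -0.15 after kainate, and the response differences of Bbc3 and Trp53 0.34 and 0.017. A block on the code prefixes found in both WT arms (2 prefixes, 6 libraries) left 0, 0 and 0 calls. The causes were not tested. The last fit had both a block and fewer libraries, which cannot be told apart.

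With the replicate block in all libraries 1 member passed after kainate between genotypes (Cdkn1a at 1.54, adjusted p = 0.0792, was lost), Bbc3 passed in EZH2nHom (0.87, adjusted p = 0.0462), and the response difference of Bbc3 became 0.15. With the replicate block in the WT libraries 5 members passed in WT. With the WT numbers as a replicate block among all libraries 1 member passed after saline and 966 genes after kainate. By the numbers of the titles, which differ from those of the columns for EZH2nHom kainate, same-numbered EZH2nHom libraries gave r from -0.04 to 0.12, and a replicate block there left 3 members and 2151 genes. The column numbering was not run.

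Leaving out 1 library at a time, 2 to 5 members and 1365 to 3414 genes passed in the WT response. Between genotypes 0 to 2 members, 6 to 24 pathway genes and 1675 to 4295 genes passed after saline, and 1 to 3, 6 to 22 and 670 to 2193 after kainate, and 0 to 4 genes in the difference. The lowest counts of genes came without WT kainate replicate 4 (1365), WT saline replicate 3 (1675) and WT kainate replicate 2 (670), and the highest without EZH2nHom kainate replicate 2 (3414 and 4295) and WT kainate replicate 4 (2193). The sign turned, with no call, for the kainate change of Mdm2 in WT (-0.028 to 0.0043) and EZH2nHom (-0.13 to 0.24) and of Bcl2 in EZH2nHom (-0.025 to 0.19), for the genotype difference of Bbc3 after saline (-0.041 to 0.42) and Trp53 after kainate (-0.34 to 0.016), and for the response differences of Bbc3 (-0.23 to 0.22), Trp53 (-0.24 to 0.12), Casp8 (-0.12 to 0.44), Bcl2l11 (-0.021 to 0.25) and Mdm2 (-0.12 to 0.26). Bbc3 had 8 to 47 reads per library.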
